A study of Caenorhabditis elegans with 6 samples.

Results

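The endoplasmic reticulum (ER) stress response genes described here are 10 Caenorhabditis elegans genes, hsp-3, hsp-4, xbp-1, ire-1, pek-1, atf-6, crt-1, cnx-1, pdi-1 and pdi-2. They were taken from a list of symbols and matched to the WormBase gene identifiers of the deposited count tables, where all 10 were found among 46778 identifiers. All 10 also passed the filter on low counts, which left 15331 genes for testing. RNA came from whole animals at L4, the final larval stage before adulthood, in 6 poly-A libraries that form 3 groups of 2. UM10 on csgA(-) bacteria and UM10 on K12 BW25113 bacteria carry the transgene aex-3p::alphasynA53T, human alpha-synuclein with the A53T change under the promoter of the neuronal gene aex-3, and N2 on K12 is wild type. The csgA(-) Escherichia coli lack csgA, which encodes the subunit that curli amyloid fibres are mainly built from, and all groups were fed from egg to L4. UM10 is a single transgenic strain, so the transgene cannot be told apart from anything else that differs between the strains, and N2 on csgA(-) was not analysed here.

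Secreted and membrane proteins enter the ER as they are made, and there chaperones and oxidoreductases fold them. When unfolded protein builds up, sensors in the ER membrane start the unfolded protein response. IRE-1 cuts the xbp-1 mRNA so that it encodes an active transcription factor, PEK-1 phosphorylates the initiation factor eIF2 and lowers translation, and ATF-6 is a membrane-tethered transcription factor. In worms the transcript of hsp-4, which encodes a BiP chaperone, is the usual readout of the IRE-1 and XBP-1 branch. Counts per gene add the cut and uncut forms of xbp-1 mRNA together, so the cutting itself was not measured.

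The groups follow the sample titles, in which WT was read as K12 food. For the UM10 libraries, the deposited file names state the opposite food from the titles. Each comparison of foods below therefore has the sign of the titles, and the comparison of both UM10 groups with N2 does not depend on that label. Gene counts per library were 22657727 to 23532382, so counting error was small for all 10 genes, whose lowest count was 289. Levels are CPM, counts scaled to a common library size, with library sizes adjusted by TMM (trimmed mean of M values). The TMM factor was 0.610 in N2 replicate 1 and 1.02 to 1.199 in the other 5 libraries, so that levels in N2 replicate 1 depend on the scaling more than the others. That library also had the fewest genes with a count, 17475 against 18984 to 19567. Among the marker lists below, 8 of 8 germline and 8 of 9 oocyte markers were at their lowest there, and 6 of 7 intestine markers at their highest. Of the 10 genes, 4 were at their highest and 4 at their lowest there. A second library, UM10 on csgA(-) replicate 1, stood apart in the heat shock transcripts hsp-16.2, hsp-16.41 and hsp-70, though not in all heat shock genes, as described below. Nothing in the labels says that replicates came from separate cultures, and p-values measure only the spread between these libraries.

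In whole UM10 animals, hsp-3, pdi-2, crt-1 and pdi-1, abundant chaperones and oxidoreductases of the ER lumen, were at 0.36 to 0.54 times N2 levels. All 4 UM10 libraries were below both N2 libraries. With library totals alone in place of TMM these genes fell less. Their log2 fold changes for the UM10 mean were then -0.94 (hsp-3), -0.84 (pdi-2), -0.37 (crt-1) and -0.38 (pdi-1), and pdi-1 overlapped. The scarce transcripts of the sensors ire-1, pek-1 and atf-6 were at 1.7 to 2.3 times their N2 level. All 4 UM10 libraries were above both N2 libraries, but with upper-quartile factors in place of TMM ire-1 overlapped. The levels of hsp-4, xbp-1 and cnx-1 overlapped between the strains. None of these differences was called by edgeR (quasi-likelihood F test, Benjamini-Hochberg adjusted p under 0.05), which called 10.3% of all tested genes. Among all tested genes, 37.3% had all 4 UM10 libraries on 1 side of both N2 libraries. Libraries of whole animals cannot tell fewer cells of a type from less RNA per cell.

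**Figure D1:**
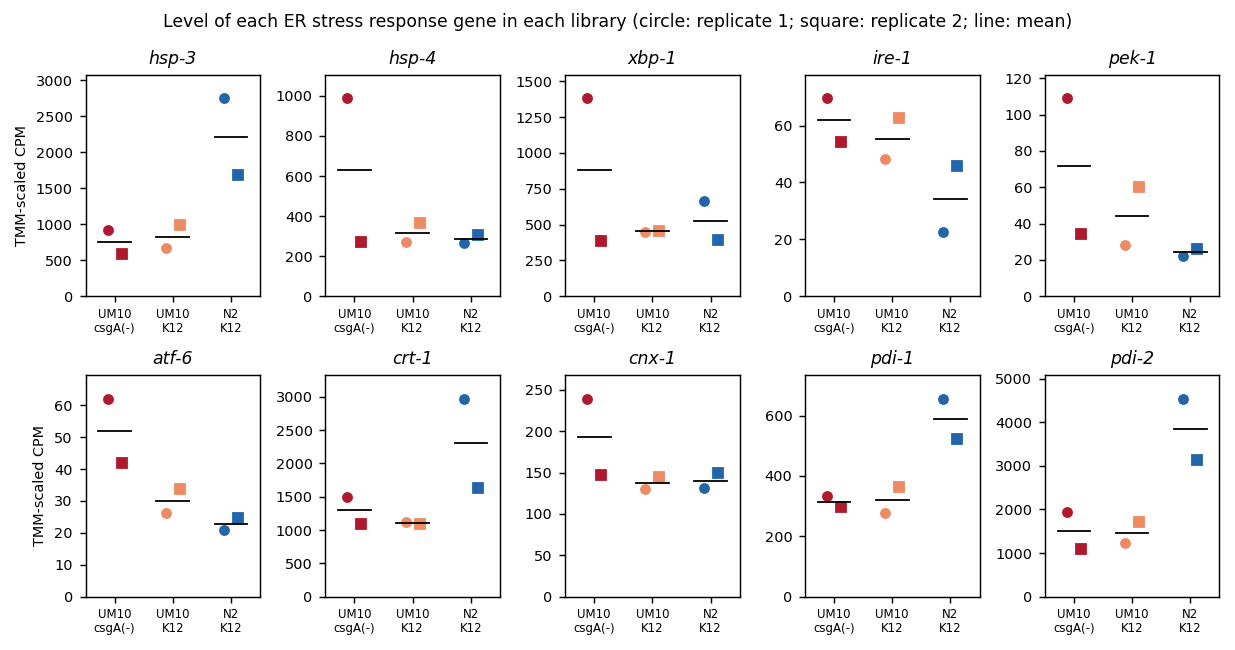
Level of each of the 10 genes in every library, in TMM-scaled CPM on a linear axis from 0, for UM10 on csgA(-), UM10 on K12 and N2 on K12 (circles replicate 1, squares replicate 2, lines group means). The N2 points of hsp-3, crt-1, pdi-1 and pdi-2 lie above all UM10 points, and UM10 on csgA(-) replicate 1 is the highest point of hsp-4, xbp-1, ire-1, pek-1, atf-6 and cnx-1.

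Among the chaperones, hsp-3 (WBGene00002007, chromosome X 6089028 to 6092124) encodes a BiP protein, the HSP70 of the ER lumen. Its level was 920.0 and 589.8 CPM in UM10 on csgA(-) and 669 and 982 CPM in UM10 on K12, against 2747 and 1684.5 CPM in N2. All UM10 libraries were lower than both N2 libraries, and the UM10 groups overlapped each other. For the mean of both UM10 groups against N2, the log2 fold change was -1.49 ± 0.45 (SE; unadjusted p 0.00694, adjusted p 0.0588, edgeR). By group it was -1.55 ± 0.56 (SE) on csgA(-) and -1.42 ± 0.55 (SE) on K12, with adjusted p of 0.0964 and 0.195 by edgeR. DESeq2 called hsp-3 lower in both groups and in their mean, with an adjusted p of 0.00283 for the mean, and adjusted p over all alternatives for the mean ran from 0.00283 to 0.2095.

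The second BiP gene, hsp-4 (WBGene00002008, II 7350112 to 7352645), differed in pattern from hsp-3. It was at 988 and 269.5 CPM in UM10 on csgA(-) and at 271 and 365 CPM in UM10 on K12, against 265 and 305 CPM in N2. A single library, UM10 on csgA(-) replicate 1, was high, and the other 5 lay between 265 and 365 CPM. It had a log2 fold change of 0.65 ± 0.52 (SE) for the mean of both UM10 groups against N2 (adjusted p 0.455, edgeR), with a 95% interval of -0.50 to 1.80. Without UM10 on csgA(-) replicate 1 it was -0.0094.

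The transcripts of both BiP genes can be set against each other within a library, where the scaling between libraries drops out. Of the reads counted for hsp-3 and hsp-4 together, hsp-4 made up 51.8% (95% Wilson interval 51.3 to 52.2) and 31.4% (30.8 to 32.0) in UM10 on csgA(-). The share was 28.8% (28.3 to 29.4) and 27.1% (26.6 to 27.5) in UM10 on K12, against 8.79% (8.52 to 9.06) and 15.3% (15.01 to 15.7) in N2. The 4 UM10 libraries were all above both N2 libraries, and UM10 on csgA(-) replicate 1 was above the rest. Per length of the genes' exons, the hsp-4 share was 56.2% and 35.3% in UM10 on csgA(-) and 32.6% and 30.7% in UM10 on K12, against 10.3% and 17.8% in N2. This ratio was chosen after its values were seen and was not tested, and the intervals cover counting error only. The summed level of both genes was 1908 and 859 CPM in UM10 on csgA(-) and 939 and 1346 CPM in UM10 on K12, against 3011 and 1989.6 CPM in N2, so that it was lower in every UM10 library, most narrowly in UM10 on csgA(-) replicate 1.

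**Figure D2:**
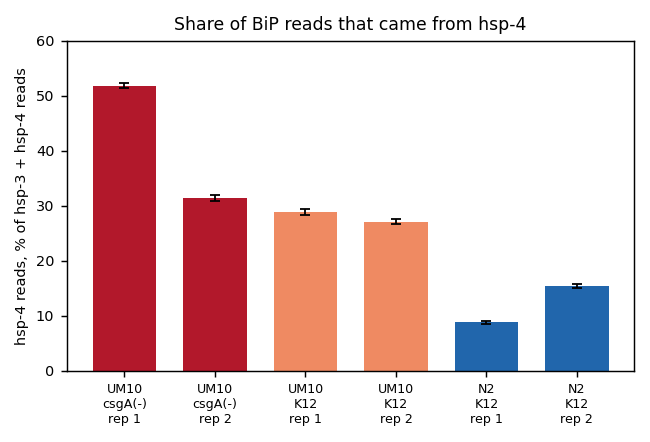
Share of the reads of both BiP genes that came from hsp-4, in percent per library, for UM10 on csgA(-), UM10 on K12 and N2 on K12, with 95% Wilson intervals for counting error. The UM10 bars stand between 27.1% and 51.8% and the N2 bars at 8.79% and 15.3%.

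The lectin chaperones hold glycoproteins during folding. The soluble one, crt-1 (calreticulin, which also binds calcium; WBGene00000802, V 6098992 to 6100542), was at 1502 and 1097 CPM in UM10 on csgA(-) and at 1115 and 1086 CPM in UM10 on K12, against 2976 and 1633 CPM in N2. All UM10 libraries were below N2, but UM10 on csgA(-) replicate 1 was close to N2 replicate 2. The log2 fold change of the UM10 mean was -0.95 ± 0.46 (SE; adjusted p 0.199, edgeR). Its membrane-bound relative cnx-1 (calnexin; WBGene00000567, III 9814364 to 9817137) was at 239.5 and 147 CPM in UM10 on csgA(-) and at 131 and 144 CPM in UM10 on K12, against 131 and 149.6 CPM in N2. Outside UM10 on csgA(-) replicate 1 the 5 libraries spanned only 131 to 149.6 CPM, and the log2 fold change of the UM10 mean was 0.22 ± 0.37 (SE; 95% interval -0.60 to 1.03).

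Protein disulfide isomerases form and rearrange the disulfide bonds of secreted proteins. PDI-2 is also the beta subunit of the worm's collagen prolyl 4-hydroxylases, which modify cuticle collagens. The level of pdi-2 (WBGene00003963, X 4524155 to 4526536) was 1932 and 1093 CPM in UM10 on csgA(-) and 1219 and 1712 CPM in UM10 on K12, against 4548 and 3138 CPM in N2. All UM10 libraries were below N2, with a log2 fold change of the UM10 mean of -1.37 ± 0.48 (SE; adjusted p 0.0880, edgeR). DESeq2 called pdi-2 lower in both UM10 groups and in their mean (adjusted p 0.00684 for the mean), and the adjusted p over all alternatives for the mean ran from 0.00684 to 0.281. The level of pdi-1 (WBGene00003962, III 3699739 to 3701461) was 333 and 297 CPM in UM10 on csgA(-) and 277 and 362 CPM in UM10 on K12, against 657 and 522 CPM in N2. Its groups did not overlap between the strains either, and its log2 fold change was -0.89 ± 0.38 (SE; adjusted p 0.148, edgeR).

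The sensors were the 3 lowest of the 10 genes in each group on the per-length scale. The kinase and endoribonuclease gene ire-1 (WBGene00002147, II 8112243 to 8124910) was at 69.6 and 54.1 CPM in UM10 on csgA(-) and at 48.14 and 62.7 CPM in UM10 on K12, against 22.5 and 45.7 CPM in N2. The lowest UM10 library and the higher N2 library were close, and with upper-quartile factors they overlapped. The log2 fold change of the UM10 mean was 0.78 ± 0.38 (SE; adjusted p 0.210, edgeR), and it was 0.27 without N2 replicate 1. For pek-1 (the PERK kinase gene; WBGene00003970, X 11410176 to 11414887) the levels were 109 and 34.4 CPM in UM10 on csgA(-) and 28.05 and 60.2 CPM in UM10 on K12, against 22.1 and 26.2 CPM in N2. Replicates within each UM10 group differed widely, and the log2 fold change of the UM10 mean was 1.22 ± 0.50 (SE; adjusted p 0.136, edgeR), or 0.64 without UM10 on csgA(-) replicate 1. The transcription factor gene atf-6 (WBGene00000222, X 12480948 to 12484904) was at 62.1 and 42.0 CPM in UM10 on csgA(-) and at 26.3 and 33.8 CPM in UM10 on K12, against 20.9 and 24.6 CPM in N2. Its log2 fold change was 0.80 ± 0.34 (SE; adjusted p 0.153, edgeR), or 0.59 without UM10 on csgA(-) replicate 1. For pek-1 and atf-6, too, the lowest UM10 library and the higher N2 library were close. The UM10 groups of atf-6 did not overlap each other, with csgA(-) the higher.

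The gene downstream of IRE-1, xbp-1 (WBGene00006959, III 4193809 to 4195358), was at 1381 and 382 CPM in UM10 on csgA(-) and at 447.5 and 458 CPM in UM10 on K12, against 664 and 390.4 CPM in N2. As with hsp-4, UM10 on csgA(-) replicate 1 was the highest library, and the strains overlapped. The log2 fold change of the UM10 mean was 0.26 ± 0.54 (SE; 95% interval -0.91 to 1.44), or -0.39 without UM10 on csgA(-) replicate 1.

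**Figure D3:**
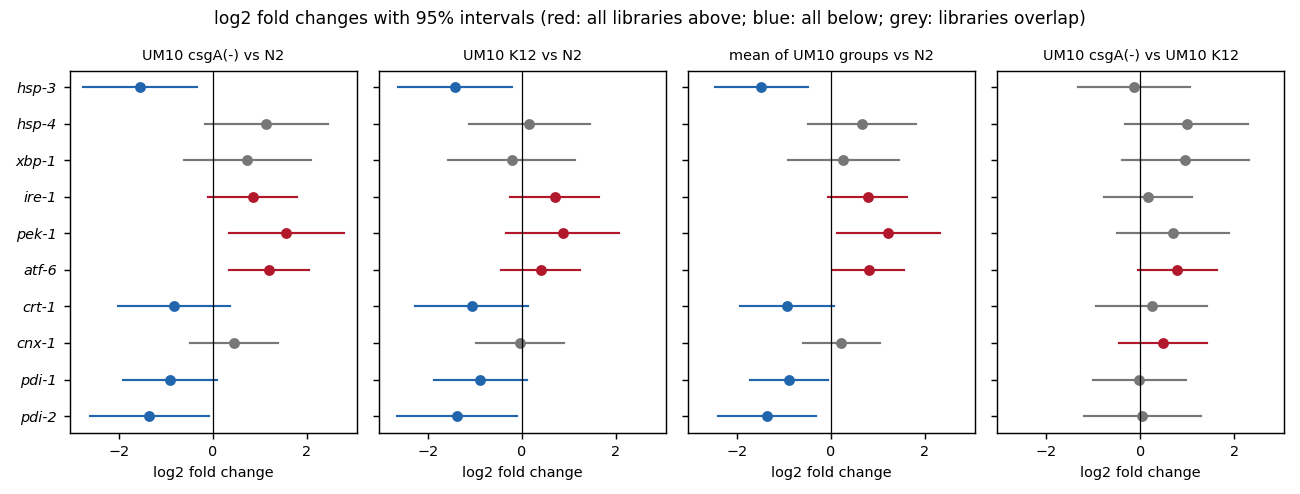
log2 fold changes of the 10 genes with 95% intervals from the edgeR fit, for UM10 on csgA(-) against N2, UM10 on K12 against N2, the mean of both UM10 groups against N2, and UM10 on csgA(-) against UM10 on K12 (red and blue mark genes whose libraries lay all above or all below those of the other group, grey those that overlapped). The comparisons with N2 share the N2 libraries, and hsp-3, at -1.55, -1.42 and -1.49, lies farthest to the left in each of them.

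For 7 of the 10 genes all UM10 libraries lay on 1 side of both N2 libraries, 4 of them below and 3 above, against 37.3% of all tested genes on either side. Within single UM10 groups it was also 7 of 10, with 4 below and 3 above, against 60.8% of all tested genes on csgA(-) and 50.4% on K12. Over the other scalings the counts were 7 to 9 in each of these groups. Leaving out a library of a compared group sets 1 library against 2, and these overlap less easily. Counts from those settings are not given for single groups. No share over all tested genes was computed for the other settings of this paragraph. Across all UM10 libraries, with library totals alone in place of TMM the counts were 3 below and 5 above, as pdi-1 then overlapped and xbp-1 and cnx-1 lay above. With upper-quartile factors they were 4 below and 2 above. Without UM10 on csgA(-) replicate 1 or without N2 replicate 1 they were again 4 below and 3 above. Without N2 replicate 2 they were 4 below and 4 above. With a library left out, fewer libraries can overlap, so these counts could hardly fall and do not measure stability. The median log2 fold change of the 10 genes for the UM10 mean was 0.24, against -0.04 over all tested genes, and was -0.21 without UM10 on csgA(-) replicate 1.

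By edgeR 0 of the 10 genes were called in each of the 4 comparisons, in which 10.3% (UM10 mean against N2), 9.05% (UM10 on csgA(-) against N2), 2.75% (UM10 on K12 against N2) and 0% (UM10 on csgA(-) against UM10 on K12) of all tested genes were called. At an unadjusted p under 0.05 there were 5, 4, 2 and 0 of the 10 in the same order, against 28.3%, 28.4%, 19.1% and 9.92% of all tested genes. DESeq2 called 2, 2, 2 and 0 of the 10, against 17.3%, 16.8%, 7.81% and 1.58% of all genes to which it gave an adjusted p, and the 2 were hsp-3 and pdi-2 each time. For the UM10 mean, leaving out N2 replicate 2 made hsp-3, crt-1 and pdi-2 pass in edgeR (adjusted p 0.0261, 0.0364 and 0.03199), and leaving out UM10 on csgA(-) replicate 2 made pek-1 pass (0.0455). Over all alternatives the adjusted p of crt-1 ran from 0.0364 to 0.492 and that of pek-1 from 0.0322 to 0.494.

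The comparison of foods within UM10 asked whether the same genes differed between csgA(-) and K12 bacteria. Of the 10, atf-6 and cnx-1 had both csgA(-) libraries above both K12 libraries and none had both below, which makes 2 of 10 without overlap, against 40.7% of all tested genes. With DESeq2 size factors or library totals alone cnx-1 overlapped and 1 gene was left. The direction also turned on single libraries. Most of the 10 lay below both K12 libraries without UM10 on csgA(-) replicate 1, and above both without UM10 on csgA(-) replicate 2. There 1 library stands against 2, which overlap less easily than 2 against 2, so the 40.7% does not apply. No share over all tested genes was computed for these settings. The fold change between foods on the log2 scale was 0.79 ± 0.38 (SE) for atf-6 and 0.49 ± 0.43 (SE) for cnx-1, with adjusted p of 0.542 and 0.817 by edgeR, and without UM10 on csgA(-) replicate 1 it was 0.32 and -0.0642. For hsp-4 it was 0.99 (95% interval -0.32 to 2.29), for xbp-1 0.96 (-0.40 to 2.32) and for pek-1 0.70 (-0.50 to 1.90). These 3 values rest on UM10 on csgA(-) replicate 1, without which they were -0.39, -0.41 and -0.50. The abundant lumenal genes had log2 fold changes between foods of -0.13 (hsp-3), 0.045 (pdi-2), -0.020 (pdi-1) and 0.24 (crt-1), and their intervals, the widest of them -1.32 to 1.06 for hsp-3, leave room for a change of either sign. The median over the 10 genes was 0.37, against 0.00 over all tested genes, and -0.33 without UM10 on csgA(-) replicate 1.

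The library on which these food values rest also had the highest levels of some cytosolic heat shock genes, and not of others. Of 10 genes in that list, 6 were at their highest in UM10 on csgA(-) replicate 1, 3 in UM10 on K12 replicate 2 and 1 in UM10 on csgA(-) replicate 2 (hsp-16.2, hsp-16.41, hsp-70 and the HSP70 pair described next to them were named after their values were seen). The small heat shock gene hsp-16.2 was at 522 and 16.9 CPM in UM10 on csgA(-) and at 0.990 and 27.6 CPM in UM10 on K12, against 12.1 and 1.30 CPM in N2. The inducible hsp-70 was also highest in that library, with 677 and 11.02 CPM in UM10 on csgA(-) and 2.24 and 66.6 CPM in UM10 on K12, against 41.0 and 1.34 CPM in N2, and hsp-16.41 was at 692 CPM there and at 0.513 to 41.7 CPM in the other 5 libraries. A pair of closely similar HSP70 genes, F44E5.4 and F44E5.5, did not share that peak. Reads shared between the pair were not counted, so the counts of both are uncertain. F44E5.4 was at 1.97 and 0.998 CPM in UM10 on csgA(-) and at 0.147 and 14.04 CPM in UM10 on K12, against 7.03 and 0.648 CPM in N2, and F44E5.5 was at 2.59 and 0.691 CPM in UM10 on csgA(-) and at 0.147 and 12.8 CPM in UM10 on K12, against 6.88 and 0.476 CPM in N2. In UM10 on csgA(-) replicate 1, hsp-4 stood 1.46 and xbp-1 1.32 above their means over the 6 libraries on the log2 CPM scale, and hsp-3 stood 0.24 below its mean. The part of a heat shock response in the ER gene levels of this library was not tested.

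**Figure D4:**
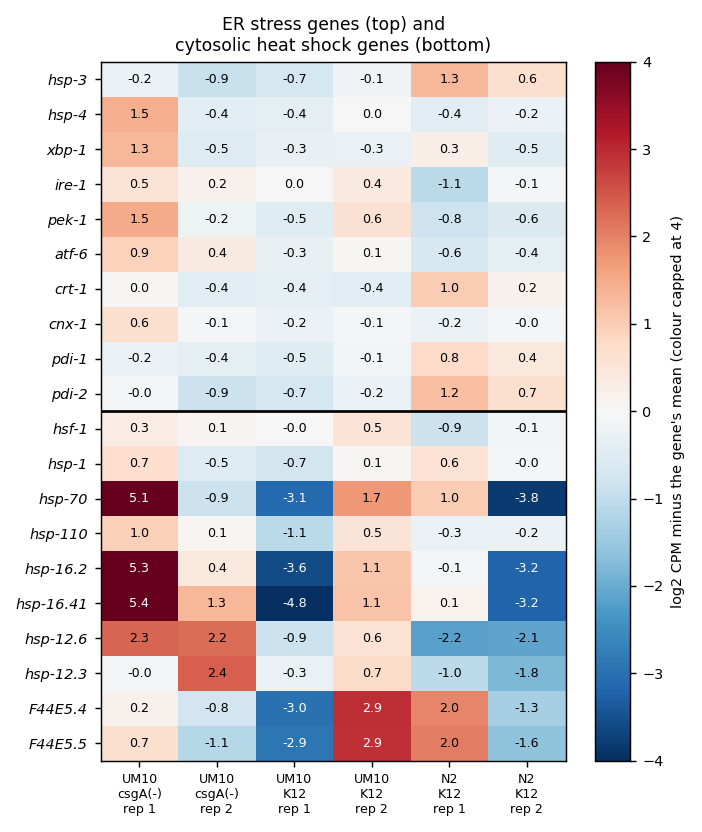
log2 CPM of the 10 ER stress response genes and of 10 cytosolic heat shock genes in each library, with each gene's mean over the 6 libraries subtracted (printed in each cell, colour capped at 4). In UM10 on csgA(-) replicate 1, hsp-16.2, hsp-16.41 and hsp-70 are more than 5 above their means and hsp-4, xbp-1 and pek-1 are 1.3 to 1.5 above theirs, while F44E5.4 and F44E5.5 are highest in UM10 on K12 replicate 2.

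On a per-length scale, as CPM per kilobase of exon, the 10 genes spanned a wide range of levels. In UM10 on csgA(-) the order was crt-1 (928 ± 205), pdi-2 (797 ± 313), xbp-1 (609.5 ± 488), hsp-3 (283 ± 87.6), hsp-4 (282 ± 228), pdi-1 (199.7 ± 15.9) and cnx-1 (90.3 ± 30.6; SD, n = 2 each), with atf-6 (21.7), pek-1 (19.3) and ire-1 (18.2) last. In UM10 on K12 it was crt-1 (786 ± 14.5), pdi-2 (772 ± 183), xbp-1 (313 ± 5.30), hsp-3 (309.5 ± 83.0), pdi-1 (203 ± 38.2), hsp-4 (142 ± 29.8) and cnx-1 (64.2 ± 4.46; SD, n = 2 each), with ire-1 (16.3), atf-6 (12.5) and pek-1 (11.9) last. In N2 it was pdi-2 (2025 ± 526), crt-1 (1645 ± 678), hsp-3 (831 ± 282), pdi-1 (374 ± 60.3), xbp-1 (365 ± 134), hsp-4 (128 ± 12.8) and cnx-1 (65.6 ± 6.12; SD, n = 2 each), followed by ire-1 (10.03), atf-6 (9.47) and pek-1 (6.52). Neighbours in these orders that were within their spread included pdi-2 and crt-1 in each group, pdi-1 and xbp-1 in N2, xbp-1 and hsp-3 in both UM10 groups, and the 3 sensors in each UM10 group. Together the 10 genes took 0.784% and 0.449% of gene counts in UM10 on csgA(-) and 0.507% and 0.607% in UM10 on K12, against 0.734% and 0.803% in N2.

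The genes also differed in how alike their patterns were over the 6 libraries, measured as the root mean square difference of log2 CPM after each gene's mean was subtracted. The closest pair of the 10 was hsp-3 and pdi-2, at 0.105, followed by crt-1 and pdi-1 at 0.234. The difference between hsp-4 and xbp-1 was 0.341 and that between hsp-4 and pek-1 was 0.336. Among 8043 other genes with at least 10 CPM on average, pdi-2 was also the gene most like hsp-3, followed by fpn-1.1, har-1, vha-20 and WBGene00020009, all within 0.158, where the median over all those genes was 0.885. The genes most like hsp-4 were ncr-1, sma-10, cpt-1, nipi-3 and ugt-41, at 0.154 to 0.223, against a median of 0.793. These values describe 6 libraries and carry no test.

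The rest of the ER pathway was described from lists of symbols by function. Proteins enter the ER through the SEC-61 channel with the TRAP complex beside it, lose their signal peptides and receive N-glycans. Of 20 such genes tested, 7 were called lower and 0 higher in the UM10 mean against N2 by edgeR (adjusted p under 0.05), where 5.25% and 5.07% of all tested genes were called lower and higher. All 20 log2 fold changes were negative, as were 51.8% of all tested genes, and their median was -0.84. The channel subunit gene sec-61.A fell, with 394 and 704 CPM in UM10 on csgA(-) and 793 and 1344 CPM in UM10 on K12, against 4620 and 2575 CPM in N2 (log2 fold change -2.23 ± 0.49 SE, adjusted p 0.0196, edgeR). The TRAP gene trap-2 fell as well, with 75.0 and 201 CPM in UM10 on csgA(-) and 353.5 and 353.03 CPM in UM10 on K12, against 1470 and 861 CPM in N2 (-2.40 ± 0.47 SE, adjusted p 0.0131, edgeR). The other called genes with the largest changes were trap-1 (-2.23) and sec-61.B (-2.09, both log2 fold changes). For these genes every UM10 library was below both N2 libraries. The count of 7 was 0 without N2 replicate 1, 1 without UM10 on K12 replicate 1, 0 without UM10 on K12 replicate 2 and 2 without UM10 on csgA(-) replicate 1.

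Other ER folding factors than the 10 numbered 17, of which 2 were called lower and 0 higher in the UM10 mean against N2 by edgeR. Over all tested genes, 5.25% were called lower and 5.07% higher. The 2 called folding factors were FKBP-type prolyl isomerase genes. The level of fkb-5 was 5.26 and 19.9 CPM in UM10 on csgA(-) and 44.9 and 45.5 CPM in UM10 on K12, against 120.3 and 175 CPM in N2 (log2 fold change -2.63 ± 0.45 SE, adjusted p 0.00831, edgeR). The level of fkb-3 was 18.2 and 34.0 CPM in UM10 on csgA(-) and 63.0 and 45.6 CPM in UM10 on K12, against 108 and 145 CPM in N2 (-1.75 ± 0.36 SE, adjusted p 0.0159, edgeR). In both genes csgA(-) libraries were the lowest. The median over the 17 was -0.87 and 16 of them were negative, as were 51.8% of all tested genes. Over all genes to which it gave an adjusted p, DESeq2 called 17.3% in this comparison. The count of 2 was 6 with DESeq2, 0 without N2 replicate 1, 4 without N2 replicate 2, 1 without UM10 on K12 replicate 2, 4 without the low-count filter or with upper-quartile factors, and 1 with library totals alone.

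ER-associated degradation returns misfolded proteins to the cytosol for destruction by the proteasome. Of 17 genes of this list, 0 were called in the UM10 mean by edgeR or by DESeq2, 1 had an unadjusted p under 0.05, and the median log2 fold change was 0.16. The largest was that of hrdl-1, at 176 and 95.3 CPM in UM10 on csgA(-) and 100.1 and 113 CPM in UM10 on K12, against 68.2 and 65.3 CPM in N2 (0.85 ± 0.38 SE, adjusted p 0.172, edgeR). Next was ufd-1, which acts with the CDC-48 ATPase, at 0.43 ± 0.32 (SE). Of 10 COPII genes, which carry cargo out of the ER, edgeR called only tfg-1, where it called 10.3% of all tested genes. The level of tfg-1 was 170.3 and 223 CPM in UM10 on csgA(-) and 190.3 and 237 CPM in UM10 on K12, against 693 and 449 CPM in N2 (log2 fold change -1.48 ± 0.38 SE, adjusted p 0.0355, edgeR). That call was kept without N2 replicate 2 and lost with library totals alone and without each of the other 5 libraries.

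Of 8 other regulators of the response, fic-1 was called higher and 0 were called lower by edgeR in the UM10 mean. Of all tested genes, 5.07% were called higher and 5.25% lower there. FIC-1 attaches AMP to BiP proteins. Its level was 39.8 and 32.6 CPM in UM10 on csgA(-) and 35.0 and 34.5 CPM in UM10 on K12, against 12.1 and 17.5 CPM in N2, so that the 4 UM10 libraries were close together and above N2. The log2 fold change was 1.26 ± 0.35 (SE; adjusted p 0.0430, edgeR), and adjusted p over the alternatives ran from 0.0146 to 0.289, with the call lost without N2 replicate 1, N2 replicate 2, UM10 on K12 replicate 1, UM10 on K12 replicate 2 or UM10 on csgA(-) replicate 1, and with upper-quartile factors, library totals alone or the first stranded column. None of 3 ER calcium genes was called by edgeR or DESeq2 in the UM10 mean, with 1 of them at an unadjusted p under 0.05 and 1 called lower without the low-count filter. Of these, unc-68 (the ryanodine receptor) was at -1.11 ± 0.50 (SE) and sca-1 (the calcium pump of the ER) at -0.70 ± 0.45 (SE) on the log2 scale, and unc-68 was at 0.066 without N2 replicate 2.

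Collagen prolyl 4-hydroxylases work with PDI-2. Of 4 collagen hydroxylase genes tested, dpy-18 and phy-2, which encode catalytic alpha subunits of prolyl 4-hydroxylase, were called lower by edgeR in the UM10 mean. In that comparison 3 of the 4 log2 fold changes were negative and 1 was positive. Over all tested genes, 51.8% were negative and 5.25% were called lower. The level of dpy-18 was 119.6 and 157 CPM in UM10 on csgA(-) and 53.4 and 69.4 CPM in UM10 on K12, against 192 and 233 CPM in N2 (log2 fold change -1.21 ± 0.35 SE, adjusted p 0.0488, edgeR). The level of phy-2 was 13.8 and 24.96 CPM in UM10 on csgA(-) and 29.8 and 35.0 CPM in UM10 on K12, against 46.0 and 74.4 CPM in N2 (-1.26 ± 0.35 SE, adjusted p 0.0448, edgeR). In dpy-18 the K12 libraries and in phy-2 the csgA(-) libraries were the lowest. Without any 1 of the 6 libraries the count of 2 was 0 or 1, with 1 only without UM10 on csgA(-) replicate 2, and it was 0 with library totals alone and 1 with the second stranded column.

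The abu genes were named for activation when the unfolded protein response is blocked, and they are also known as genes of the pharyngeal cuticle. Of 11 tested, 10 were called lower and 0 higher in the UM10 mean by edgeR, against 5.25% and 5.07% of all tested genes. Those with the largest log2 fold changes in any comparison were abu-7, abu-6, abu-15 and abu-1, which were at -6.38, -6.28, -5.30 and -5.25 in the UM10 mean. Their levels were 0 to 4.72 CPM in UM10 on csgA(-) and 0.220 to 1.29 CPM in UM10 on K12, against 28.97 to 71.5 CPM in N2. The members resemble each other in sequence and reads shared between them were not counted, and without N2 replicate 1 the count of 10 was 2.

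**Figure D5:**
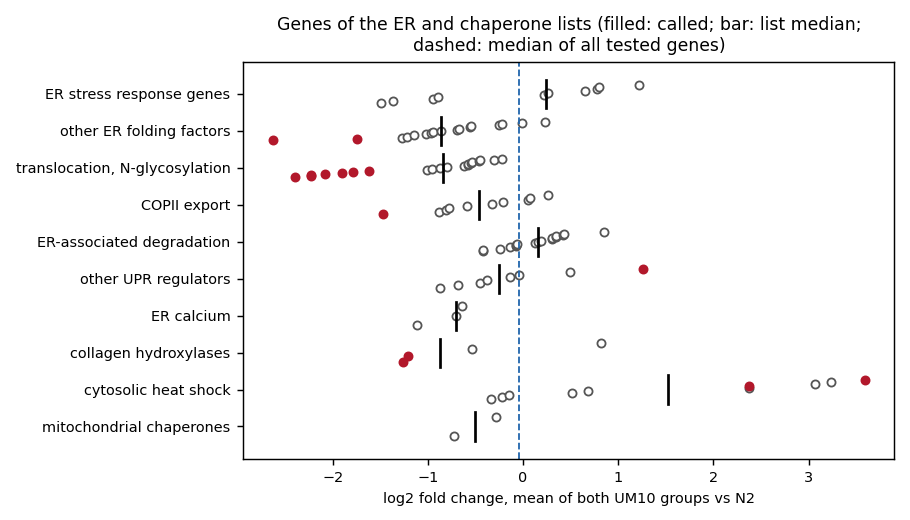
log2 fold changes of the mean of both UM10 groups against N2 for each tested gene of the ER and chaperone lists without the abu genes (filled points were called by edgeR at an adjusted p under 0.05, black bars are list medians, the dashed line is the median of all tested genes at -0.04). The 7 called translocation genes lie at the left, from -2.40 to -1.62, and no point of the ER stress response list is filled.

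Among chaperones of other compartments, 2 of 10 cytosolic heat shock genes were called higher in the UM10 mean by edgeR, against 5.07% of all tested genes. They were hsp-12.6 (log2 fold change 3.59) and hsp-12.3 (2.38), both small heat shock proteins of the HSP-12 group. The level of hsp-12.6 was 8.2998 and 7.83 CPM in UM10 on csgA(-) and 0.843 and 2.43 CPM in UM10 on K12, against 0.290 and 0.303 CPM in N2. Without N2 replicate 1 neither was called. The call of hsp-12.3 (adjusted p 0.0477) was kept without UM10 on csgA(-) replicate 1 and lost without each of the other 5 libraries, and its adjusted p over the alternatives ran from 6.344e-05 to 0.233. The count of 2 ran from 0 to 5 over the alternatives, with 5 without the low-count filter. The mitochondrial chaperone genes hsp-6 (-0.29 ± 0.46 SE) and hsp-60 (-0.72 ± 0.40 SE) were called neither by edgeR nor by DESeq2, with 0 at an unadjusted p under 0.05, and hsp-6 was at 0.18 with library totals alone.

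Markers of tissues and stages were compared between the strains by list, and genes were called in some of these lists and not in others. Of all tested genes, 5.07% were called higher and 5.25% lower in the UM10 mean by edgeR. Of 9 oocyte markers, 8 were called higher in the UM10 mean by edgeR and all 9 had every UM10 library above N2, with summed levels of 4604 and 3179 CPM in UM10 on csgA(-) and 2518 and 4437 CPM in UM10 on K12, against 581 and 1064 CPM in N2. Summed levels of some marker lists were mostly those of 1 abundant gene. The 7 intestine markers summed to 604 and 725 CPM in UM10 on csgA(-) and 1615 and 1923 CPM in UM10 on K12, against 6921 and 2535 CPM in N2, and 1 of them was called lower by edgeR and 3 by DESeq2. The actin gene act-5 made up 22.6% to 80.0% of that sum, and the other 6 genes summed to 467.5 and 364 CPM in UM10 on csgA(-) and 584 and 631 CPM in UM10 on K12, against 1383 and 634 CPM in N2. The 8 hypodermis markers summed to 2031 and 1335 CPM in UM10 on csgA(-) and 1653 and 1794.5 CPM in UM10 on K12, against 2179 and 1385 CPM in N2, with 2 called lower by edgeR and 4 by DESeq2. The collagen gene col-19 made up 41.3% to 82.4% of that sum. The other 7 hypodermis markers summed to 358 and 386 CPM in UM10 on csgA(-) and 510.0 and 698 CPM in UM10 on K12, against 692 and 813 CPM in N2. The 8 neuron markers, aex-3 among them, summed to 651 and 551 CPM in UM10 on csgA(-) and 387 and 452 CPM in UM10 on K12, against 580.4 and 402 CPM in N2, with 0 called by edgeR or DESeq2 and 0 at an unadjusted p under 0.05. The synaptobrevin gene snb-1 made up 62.7% to 84.8% of that sum, and 6 of the 8 neuron markers were at their lowest in UM10 on csgA(-) replicate 1. Without snb-1 they summed to 98.7 and 152 CPM in UM10 on csgA(-) and 144 and 158 CPM in UM10 on K12, against 156 and 140.2 CPM in N2. The 8 germline markers summed to 2098 and 1660 CPM in UM10 on csgA(-) and 1055 and 1879 CPM in UM10 on K12, against 439 and 1242 CPM in N2, and all 8 log2 fold changes were positive, with 0 called by edgeR, 2 called higher by DESeq2 and 5 at an unadjusted p under 0.05. The 6 yolk protein genes vit-1 to vit-6 summed to 26683 and 6376.5 CPM in UM10 on csgA(-) and 11306 and 18785 CPM in UM10 on K12, against 41957 and 22437 CPM in N2, with 2 called lower by edgeR, although some of these genes are near copies of each other whose counts are uncertain. The 6 body wall muscle markers summed to 12298 and 12886 CPM in UM10 on csgA(-) and 7374 and 7286 CPM in UM10 on K12, against 18121 and 12860 CPM in N2, with 0 called by edgeR or DESeq2 and 0 at an unadjusted p under 0.05. Of 6 sperm markers and 5 pharyngeal gland markers 0 were called by edgeR or DESeq2, with 0 and 2 at an unadjusted p under 0.05. No marker in these lists was at 0 in all libraries. The part of tissue make-up or developmental timing in the ER gene levels was not tested.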

How the data were processed

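RNA-seq of whole L4 animals was deposited as 1 table per library of raw read counts per gene. Per the submitters' processing notes, the tools were STAR 2.7.5 and DESeq2 1.28.1 and the build was WBcel235. The annotation used by the authors is not given in the sources used here. The authors' unstranded counts were used. Summary lines (unmapped, multimapping, no gene, ambiguous; 7.85% to 8.72% of reads) were left out.

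Symbols, positions (WBcel235) and exon lengths came from Ensembl release 115. Genes were filtered with filterByExpr (at least 10 counts in 2 libraries at the median depth, 15 in total) and scaled by TMM. They were tested with edgeR 4.0.16 in R 4.3.3 (quasi-likelihood F test, all 6 libraries, 1 term per group, 3 residual degrees of freedom, Benjamini-Hochberg over 15331 genes, called under 0.05). Standard errors were derived from F, as the log2 fold change (without sign) divided by √F. The dispersion common to all genes was 0.152. Alternatives used DESeq2 1.42.0. The 10 genes and the gene lists were chosen with earlier results of these data known. In other lists, called genes were named (at most 4 per list, those with the largest change in any comparison), or the 2 with the largest change where none was called. Symbols that matched no single identifier were left out, and where a list is counted only its matched genes are meant.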

Additional observations from a re-analysis of the deposited data

How the results depend on the processing

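With 2 libraries per group, most counts moved with single libraries. Leaving out 1 library gave 49 to 1774 calls over all genes for the UM10 mean against N2 (1582 with all libraries), 157 to 1544 for UM10 on csgA(-) against N2 (1388), 2 to 579 for UM10 on K12 against N2 (421) and 0 to 78 for the foods (0). Of the 10 ER stress genes it gave 0 to 3, 0 to 1, 0 and 0 in the same order. Other settings are listed in the same order. Without the low-count filter there were 2831, 2705, 1333 and 470 calls, with 3, 1, 0 and 0 of the 10. DESeq2 gave 2659, 2584, 1165 and 243, with 2, 2, 2 and 0. With the replicate block there were 2418, 2434, 845 and 165, with 1 of the 10 (hsp-3, adjusted p 0.0459 by edgeR) for the UM10 mean and 0 elsewhere. Deviations of same-numbered libraries correlated over genes at 0.35 between N2 and UM10 on K12. The correlation was -0.08 between N2 and UM10 on csgA(-) and 0.09 between the UM10 groups. Whether the replicate numbers pair the libraries was not settled by these values, and the main settings did not use the numbers. Upper-quartile factors gave 1 of the 10 for the UM10 mean, and 276 calls over all genes on K12. The foods had 1 and 4 calls with the first and second stranded columns, 2 with robust empirical Bayes and 30 with library totals alone, the last added after the data were seen. Library totals moved the median log2 fold change of all genes for the UM10 mean to 0.43, and 76.6% of its calls were higher, against 49.1% under TMM, 44.2% under DESeq2 size factors and 36.9% under upper-quartile scaling. Fitting only the libraries compared was run for comparisons of single groups.

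Of 630 log2 fold changes of the 10 genes under alternatives, 33 changed sign. None of the 10 genes was called with the main settings, so there was no called value that could change sign. For cnx-1 in UM10 on K12 against N2 the value was 0.0153 with the first stranded column, 0.48 with library totals and 0.0028 with only the libraries compared. For pdi-2 between foods it was -0.0203 with the replicate block, -0.067 with the first stranded column and -0.0867 with library totals. For xbp-1 on K12 against N2 it was 0.41 with library totals, and for hsp-6 in the UM10 mean 0.18. With 1 library left out, the log2 fold change for the UM10 mean ranged from -0.0094 to 0.99 for hsp-4, -0.39 to 0.61 for xbp-1, -0.0283 to 0.38 for cnx-1 and -1.85 to 0.0659 for unc-68. For UM10 on csgA(-) against N2 it ranged from -0.21 to 1.79 for hsp-4, -0.60 to 1.37 for xbp-1 and -0.0604 to 0.76 for cnx-1. On K12 against N2 it ranged from -0.0054 to 0.35 for hsp-4, -0.56 to 0.16 for xbp-1 and -0.18 to 0.0604 for cnx-1. Between foods it ranged from -0.39 to 1.60 for hsp-4, -0.41 to 1.56 for xbp-1, -0.50 to 1.27 for pek-1, -0.0642 to 0.76 for cnx-1, -0.17 to 0.40 for crt-1, -0.64 to 0.12 for hsp-3, -0.19 to 0.29 for ire-1, -0.26 to 0.0405 for pdi-1 and -0.58 to 0.36 for pdi-2. The cause was not tested. The signs of hsp-3, pdi-1, pdi-2, crt-1, ire-1, pek-1 and atf-6 against N2 were the same under every alternative run.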

Other observations

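Some of the 10 genes share ground with neighbours. The gene smut-1 overlaps 92 exon bases of crt-1 on the other strand, and reads in the shared stretch are ambiguous in the unstranded count. Its level was 23.8 and 21.6 CPM in UM10 on csgA(-) and 25.5 and 20.7 CPM in UM10 on K12, against 8.76 and 10.2 CPM in N2, a log2 fold change of the UM10 mean of 1.27 ± 0.36 (SE; adjusted p 0.0453, edgeR), where that of crt-1 was -0.95. The cyclophilin gene cyn-9 begins 98 bases from pdi-1 on the same strand, and was at 15.2 and 9.87 CPM in UM10 on csgA(-) and 19.1 and 11.5 CPM in UM10 on K12, against 3.33 and 9.17 CPM in N2. Its log2 fold change of 1.13 ± 0.50 (SE; adjusted p 0.160, edgeR) had the other sign from the -0.89 of pdi-1, and neither was called. The ion channel gene unc-105 lies within ire-1 on the other strand with 4 exon bases in common, and was at -0.43 ± 0.47 (SE), where ire-1 was at 0.78. These neighbours were named from the annotation, and the differences between neighbours were not tested. Whether the call of smut-1 held under the alternative settings was not examined.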
